A study of Pimephales promelas with 80 samples.

Results

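The comparison described here is the uppermost step of a dose series of 6PPD-quinone (6PPD-Q) in larvae of the fathead minnow, Pimephales promelas. It sets 5 whole larvae at 8.78 mg/L against 5 whole larvae at 2.77 mg/L, 10 of the 80 libraries of the series, chosen by their labelled chemical and dose. The upper dose was 3.17 times the lower. The remaining libraries were 30 larvae at 6 doses of the parent compound 6PPD, 30 larvae at the 6 lower doses of 6PPD-Q and 10 unexposed controls. Every larva was a separate animal held for 24 h, unfed, in a plate well with 0.3% DMSO at 25 °C, and no strain or genotype is labelled. The larvae were 5 days past hatching by one label, while another counts a like age from fertilization. The codes of all 10 larvae carry the letter C, read here as a plate and called plate C below. Controls 1 and 2 and replicate 1 at 2.68 mg/L of 6PPD carry the letter A, and all other libraries the letter C. The rest of the code was read as a position, and 2 of the 5 at each dose fell in an outer row or column of a 96-well layout. Doses are as labelled, and the labels give no measured concentrations.

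6PPD is added to tire rubber, where it reacts with ozone and protects the rubber from cracking. 6PPD-Q is a product of that reaction and washes off roads into streams. It is lethal to coho salmon at low concentrations, while several other fishes, the fathead minnow among them, survive far more of it. Fish larvae typically answer foreign compounds with transcription of detoxification genes under receptors such as the aryl hydrocarbon receptor, and a whole-larva library pools liver, gut, muscle, skin, blood and brain. The deposited files know each gene by an FMg identifier alone, and 0 of 26150 identifiers matched the supplied RefSeq genes. No function, tissue marker or sequence is therefore attached to any gene here, and the label of whole larvae was not checked against marker genes.

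In general measures the libraries of the 2 doses differed by less than the spread between fish. Counts in genes ran from 17.2 to 20.8 M at 8.78 mg/L and from 17.5 to 21.3 M at 2.77 mg/L (M, the SI prefix mega), within 16.2 to 36.6 M over all 80 libraries. Counts in genes, genes detected, the shares of reads inside and outside genes, the scaling factor and the share of the 10 most counted genes gave adjusted p-values of 0.929 in an exact two-sided permutation test over all splits of the 10 fish into 5 and 5. The smallest p this test can give is 0.00794. Replicate 5 at 8.78 mg/L stood apart from its dose, with the fewest genes detected (22110) and the lowest scaling factor (0.884) of all 80 libraries. The next lowest factor was 0.885, in replicate 3 at 0.00878 mg/L of 6PPD-Q. The authors' deposited log2 table has no column for replicate 5 at 8.78 mg/L. Several results that move without it are given both ways.

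The question was whether expression went on changing over the last step of the dose series. Between 8.78 and 2.77 mg/L, 5 genes were higher and 0 were lower at the upper dose, 0.0231% of the 21599 genes tested. Called means an adjusted p under 0.05 in edgeR's quasi-likelihood test, in which the spread was estimated over all 80 libraries; every adjusted p of a gene below is from it where no other tool is mentioned. At an unadjusted p under 0.05, 1026 genes were higher and 885 lower, 1911 in all or 8.85% of those tested. DESeq2, which tested 25428 genes, called 11 higher and 1 lower, with all 5 genes among them. Its smallest adjusted p, 2.3e-75, was in a gene that edgeR did not call. The direction, level and counts per fish of that gene are not given here, so this value is not read as a dose effect. In bulk larvae, fewer cells of a type and less RNA per cell cannot be told apart.

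With the 10 fish fitted alone, 0 genes passed in edgeR, although 1228 had an unadjusted p under 0.05. The log2 fold change of FMg005974, the first of the 5 genes, was 1.64 in both fits. The fit of 10 fish also had fewer degrees of freedom and tested 20077 genes, and which of these changes ended the calls was not tested. A limma fit of the deposited log2 values, without replicate 5 at 8.78 mg/L, called 3 higher and 0 lower, and the edgeR fit without that fish also called 3. Leaving out replicate 2 at 8.78 mg/L gave 16, replicate 3 gave 2, and replicate 1 or 5 at 2.77 mg/L gave 3. The 95% interval of a log2 difference reached 0.34 to either side of it at the median. This was over the 14703 genes averaging 5 CPM or more in the 10 fish, without adjustment for the number of genes tested. Smaller differences were thus mostly not detectable with 5 fish a dose, and larger ones rarely passed the adjusted threshold. Among these 14703 genes, 744 were higher and 675 lower at an unadjusted p under 0.05, and 5 were called. The largest unadjusted p among the 5 called genes was 6.4e-06 in edgeR's test, and log2 differences of 1.17 and -0.64 in genes described below did not pass. A level in CPM is a count divided by the TMM-scaled library size in M.

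**Figure D1:**
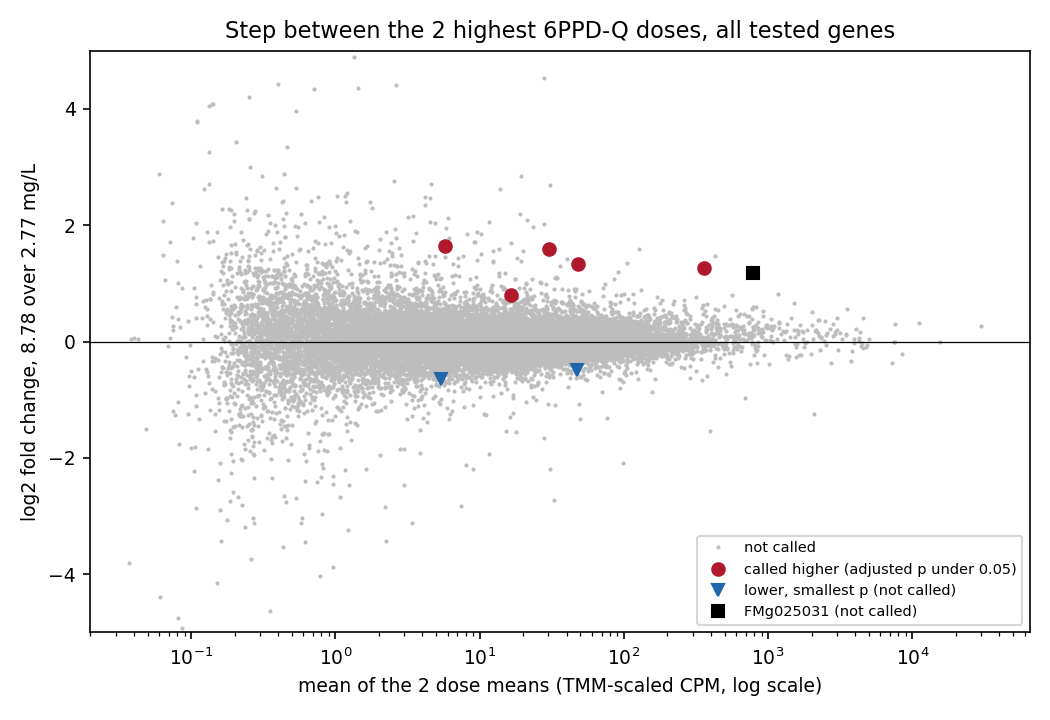
Log2 fold change of the upper over the lower dose (vertical axis) against the mean level in TMM-scaled CPM (horizontal axis, log scale), 1 point per tested gene, with 13 genes outside the axes. The 5 called genes lie above 0, and the genes with the smallest p on the lower side lie within the cloud of genes that were not called.

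FMg005974 had the largest fold change of the 5 called genes. Its level was 6.52, 10.1, 11.2, 6.87 and 8.48 CPM in replicates 1 to 5 at 8.78 mg/L, and 2.45, 3.05, 4.18, 2.08 and 2.16 CPM at 2.77 mg/L. Every fish at the upper dose lay above every fish at the lower dose and above the highest control, at 4.69 CPM. The mean was 8.64 ± 2.03 CPM at 8.78 mg/L and 2.78 ± 0.87 CPM at 2.77 mg/L (SD, n = 5 each), a log2 fold change of 1.64 ± 0.28 (SE, adjusted p = 0.00251). Against controls, at 3.66 ± 0.88 CPM (n = 10), the fish at 8.78 mg/L were higher by 1.24 ± 0.23 on the log2 scale (adjusted p = 0.00107), and those at 2.77 mg/L differed by -0.40 ± 0.24 without passing (adjusted p = 0.764). The step stayed past the threshold without any 1 of the 10 fish, with adjusted p up to 0.0277, and reached 0.176 with the 10 fish fitted alone.

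FMg006153 was second by fold change, and its fish at the upper dose differed widely. It stood at 17.1, 79.98, 69.5, 39.0 and 21.7 CPM at 8.78 mg/L, and at 9.78, 17.4, 18.2, 13.6 and 16.6 CPM at 2.77 mg/L. Replicates 2, 3 and 4 at the upper dose were above the highest control at 30.1 CPM, while replicate 1 overlapped the lower dose. The means were 45.5 ± 28.2 CPM at 8.78 mg/L and 15.1 ± 3.45 CPM at 2.77 mg/L (SD, n = 5 each), with a log2 fold change of 1.59 ± 0.29 (SE, adjusted p = 0.00435). Against controls at 22.7 ± 4.52 CPM (n = 10) it was higher by 1.00 ± 0.24 on the log2 scale at 8.78 mg/L (adjusted p = 0.032), and the -0.59 ± 0.25 at 2.77 mg/L did not pass (adjusted p = 0.717). The call of the step was lost without replicate 3 at 8.78 mg/L (adjusted p = 0.0708) or replicate 1 at 2.77 mg/L (adjusted p = 0.0556).

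The third called gene separated the doses completely. It stood at 43.8, 111, 86.2, 52.6 and 53.1 CPM at 8.78 mg/L, and at 18.8, 27.5, 30.3, 26.8 and 34.1 CPM at 2.77 mg/L. The upper dose was higher by 1.34 ± 0.23 on the log2 scale (SE, adjusted p = 0.00251), and without any 1 fish the adjusted p was at most 0.0379. The controls averaged 42.2 ± 9.96 CPM (SD, n = 10), and only replicates 2 and 3 at the upper dose exceeded the highest of them, at 64.0 CPM. That control carries the letter A. The highest control of plate C was at 44.5 CPM, and all fish at the upper dose but replicate 1 exceeded it. Against controls the gene passed at neither dose: the log2 difference of 0.72 ± 0.19 at 8.78 mg/L had an adjusted p of 0.0695, and that of -0.62 ± 0.20 at 2.77 mg/L one of 0.51.

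The fourth called gene was at 255, 550, 487, 349 and 905 CPM at 8.78 mg/L, and at 156, 162, 351, 191 and 198 CPM at 2.77 mg/L. Replicate 5 was the highest fish at the upper dose and replicate 3 the highest at the lower, where it overlapped replicates 1 and 4 of the upper dose. The upper dose exceeded the lower by 1.27 ± 0.25 on the log2 scale (SE, adjusted p = 0.0185), and against controls at 244 ± 30.3 CPM (SD, n = 10) the rise at 8.78 mg/L was 1.06 ± 0.21 (adjusted p = 0.00269). Without replicate 5 at 8.78 mg/L, the fish that stood apart, the step had an adjusted p of 0.224. The call was also lost without replicate 3 at 8.78 mg/L (adjusted p = 0.0534) and without replicates 1, 2, 4 or 5 at 2.77 mg/L (adjusted p = 0.111, 0.127, 0.0878 and 0.113). Without replicate 3 at 2.77 mg/L the log2 fold change was 1.53 (adjusted p = 0.00216).

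The fifth called gene had the smallest change and a different order of fish. It stood at 29.0, 13.9, 20.9, 19.3 and 22.3 CPM at 8.78 mg/L, and at 12.8, 13.8, 8.90, 12.7 and 11.9 CPM at 2.77 mg/L. Replicate 1, the lowest upper-dose fish in the 4 other called genes, was here the highest fish of the upper dose, and replicate 2 the lowest, just above the highest fish of the lower dose. The doses differed by 0.81 ± 0.17 on the log2 scale (SE, adjusted p = 0.0278). At 2.77 mg/L, 4 of 5 fish were below the lowest control at 13.4 CPM, which carries the letter A. The lowest control of plate C was at 14.6 CPM, above every fish at 2.77 mg/L. The gene passed against controls at neither dose (log2 differences 0.33 ± 0.14 at 8.78 mg/L and -0.48 ± 0.15 at 2.77 mg/L, adjusted p = 0.292 and 0.398). The call was lost without replicates 1, 3 or 5 at 8.78 mg/L (adjusted p = 0.269, 0.0708 and 0.0974) and without replicates 1, 3, 4 or 5 at 2.77 mg/L (adjusted p = 0.0642, 0.247, 0.068 and 0.113).

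**Figure D2:**
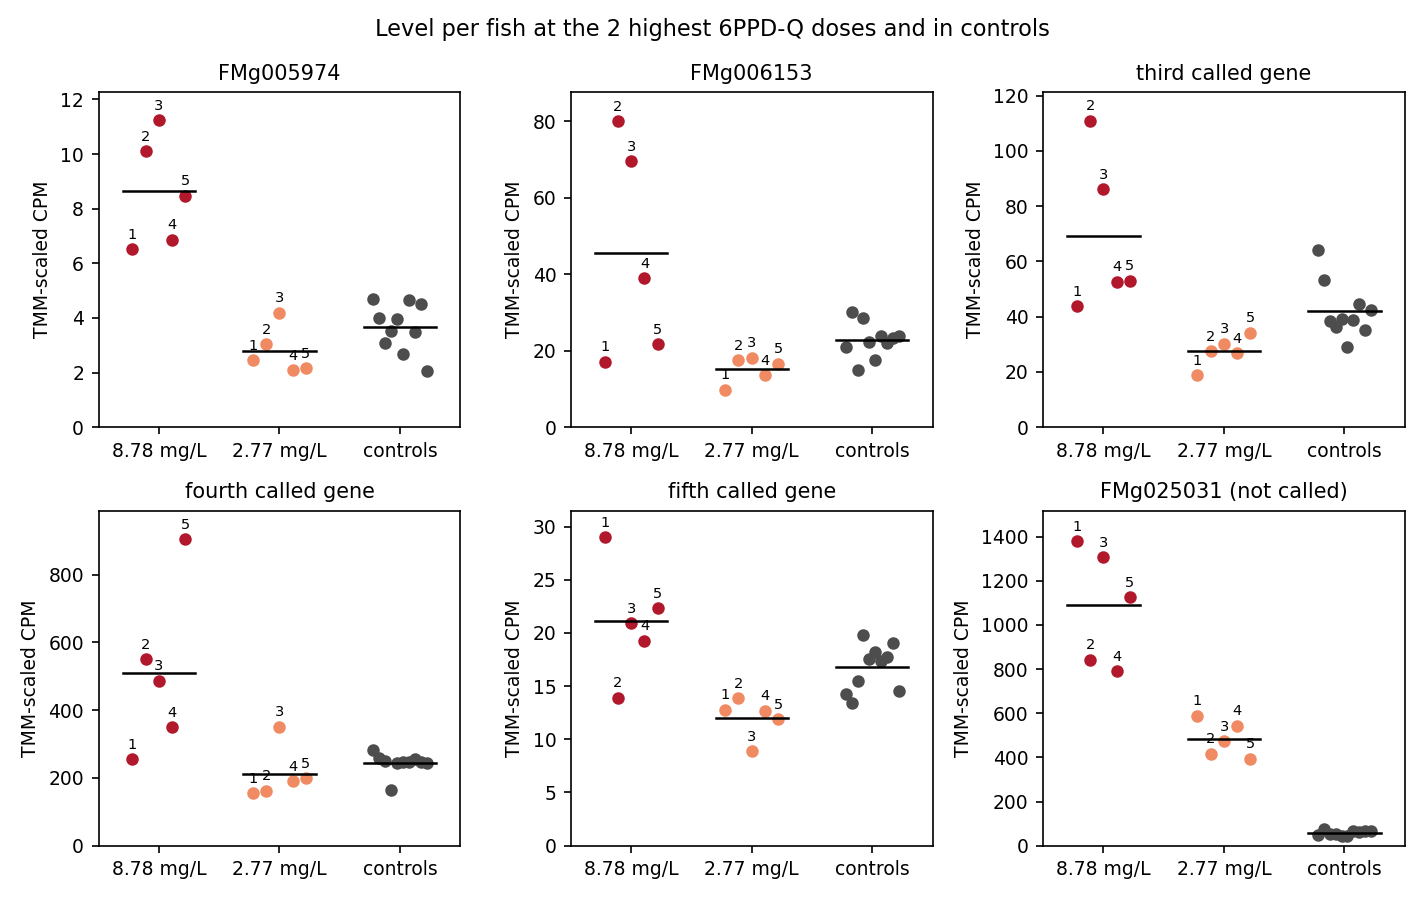
Level of the 5 called genes and of FMg025031 in every fish at 8.78 mg/L, at 2.77 mg/L and in controls, in TMM-scaled CPM on a linear axis from 0; numbers are replicates and horizontal lines are group means. In FMg005974, the third and the fifth called genes and FMg025031 all fish at 8.78 mg/L lie above all fish at 2.77 mg/L, while FMg006153 and the fourth overlap.

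All 5 called genes had a lower mean at 2.77 mg/L than in controls, so the step was larger than the difference between 8.78 mg/L and controls in each. Both contrasts use the fish at 8.78 mg/L, and the genes were picked for the step, so this is a description. None of the 5 passed at 2.77 mg/L against controls, where 3 genes of all tested were called (0.0139%), against 65 at 8.78 mg/L (0.301%). At the 6 lower doses, group means of FMg005974 ran from 2.99 CPM at 0.0878 mg/L to 4.28 CPM at 0.277 mg/L, those of FMg006153 from 15.6 CPM at 0.878 mg/L to 20.1 CPM at 0.0277 mg/L, and those of the third called gene from 30.5 CPM at 0.878 mg/L to 38.1 CPM at 0.0277 mg/L. In each of the 5 genes the mean at 8.78 mg/L was the highest of the dose series. The mean at 2.77 mg/L was the lowest in 4 of them, while in the fourth called gene those at 0.0277 and 0.277 mg/L were lower still.

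**Figure D3:**
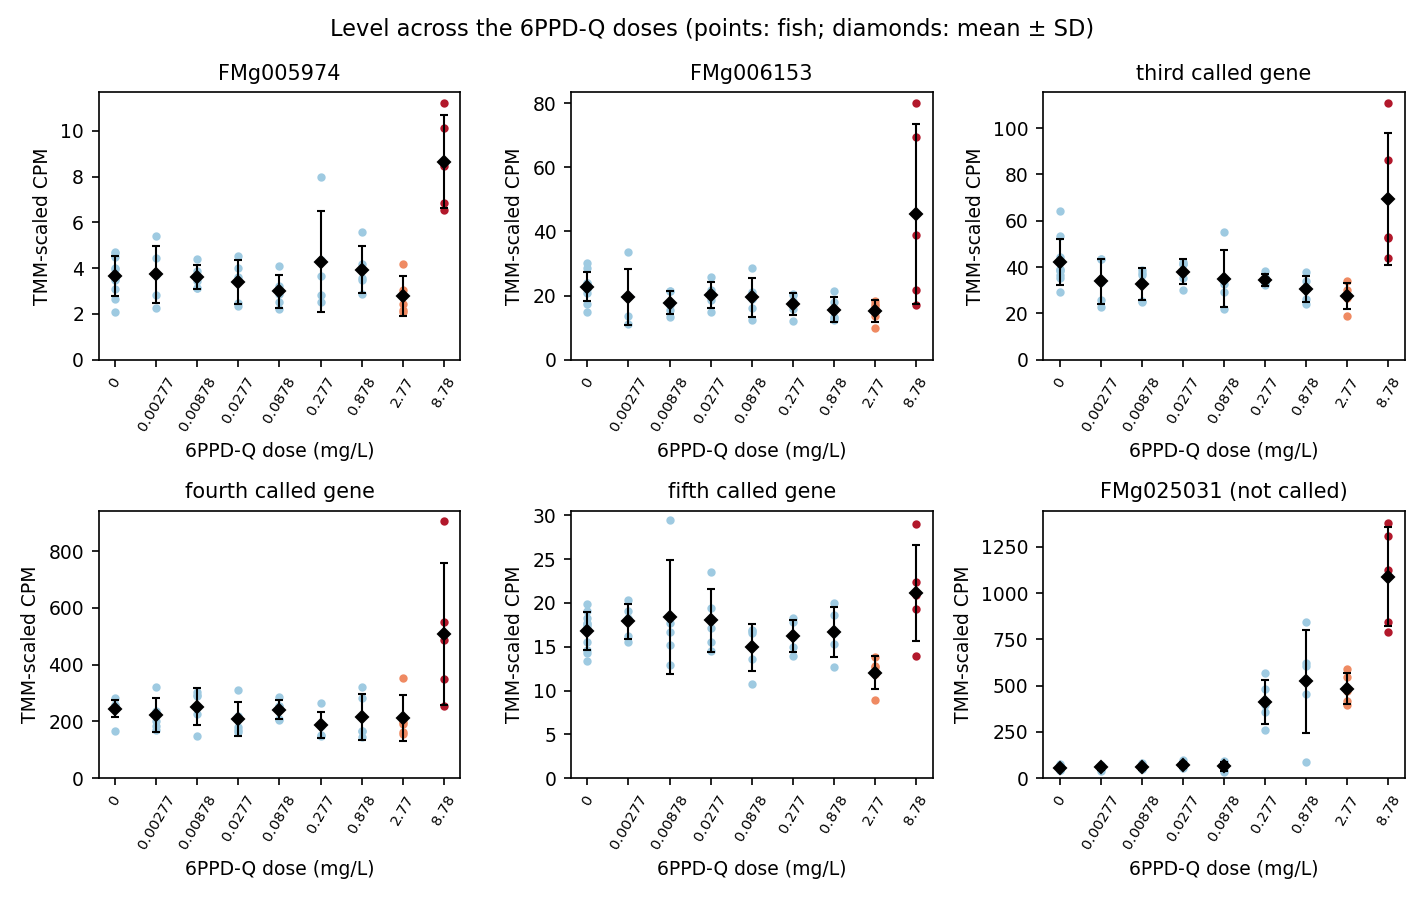
Level of the same genes in controls (0) and at the 8 doses of 6PPD-Q in rising order, in TMM-scaled CPM on a linear axis from 0; points are fish and diamonds are means with SD (n = 10 controls and 5 fish a dose). The 5 called genes have their highest mean at 8.78 mg/L, while the means of FMg025031 lie above every control at each of the 4 upper doses.

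FMg025031, singled out because earlier results of these data had shown it as the clearest 6PPD-Q gene, had a higher level at the upper dose in every fish but did not pass the test. It was at 1379, 843, 1308, 791 and 1126 CPM at 8.78 mg/L, and at 588, 417, 473, 544 and 393 CPM at 2.77 mg/L. The lowest fish of the upper dose stood above the highest of the lower. The log2 difference was 1.17 (95% interval 0.61 to 1.73, adjusted p = 0.143), and the adjusted p was 0.0463 with DESeq2, 0.34 with limma and 0.0541 to 0.346 without single fish. Its means at the 2 doses below were 522 ± 280 CPM at 0.878 mg/L and 413 ± 118 CPM at 0.277 mg/L (SD, n = 5 each). From 0.878 to 2.77 mg/L the log2 difference was -0.11 (95% interval -0.66 to 0.44, adjusted p = 0.997). Over the 10 fish, the 3 genes whose log2(CPM + 1) followed it most closely, of 14702 averaging 5 CPM or more, had Pearson r of 0.976, 0.95 and 0.929. These r values are the highest of many, include the difference between the doses, and are given as a description. None of the 3 was called in the step (adjusted p = 0.158, 0.443 and 0.463).

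No gene was called lower at 8.78 than at 2.77 mg/L. The gene with the smallest p on that side, FMg001978, stood at 41.2, 41.9, 39.4, 42.8 and 31.1 CPM at 8.78 mg/L, and at 60.5, 48.4, 49.2, 65.7 and 51.3 CPM at 2.77 mg/L. The groups did not overlap, yet the log2 difference of -0.49 (95% interval -0.71 to -0.27) had an adjusted p of 0.124. The second such gene, FMg015600, was at 3.99, 4.79, 4.29, 5.18 and 2.73 CPM at 8.78 mg/L, and at 5.77, 6.98, 6.12, 7.38 and 6.52 CPM at 2.77 mg/L. Its log2 difference was -0.64 (95% interval -0.95 to -0.33, adjusted p = 0.143). Replicate 5 was the lowest fish of the upper dose in both genes. Without single fish the log2 difference ran from -0.53 to -0.41 in FMg001978 (adjusted p 0.0541 to 0.264). In FMg015600 it ran from -0.73 to -0.52 (adjusted p 0.0541 to 0.33). Both had higher means at 2.77 mg/L than in controls, which averaged 45.6 ± 3.94 and 4.97 ± 0.62 CPM (SD, n = 10), and neither passed against controls at either dose. DESeq2 called FMg001978 (adjusted p = 0.0463) and not FMg015600 (adjusted p = 0.0753).

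Over all tested genes, 135 had every fish at 8.78 mg/L above every fish at 2.77 mg/L (0.625%), and 140 had every fish below (0.648%). Of the 5 called genes, FMg005974, the third and the fifth were among the 135. Without replicate 5 at 8.78 mg/L, which leaves 4 fish against 5, the counts were 339 and 337 (1.57% and 1.56%). Leaving out any other single fish also raised both counts, as separation is easier with fewer fish. They were 278 and 318 (1.29% and 1.47%) without replicate 4 at 8.78 mg/L. Without replicate 5 at 2.77 mg/L they were 312 and 282 (1.44% and 1.31%). The largest fitted changes were not those that passed. Among genes averaging 5 CPM or more, 18 that were not called were higher and 8 were lower by more than FMg005974, and 1 of these 26 had separated groups. In these 26, the highest fish of the higher dose held 65.3% of that dose's summed CPM at the median (range 28.7% to 97.7%), against 32.0% in the 5 called genes (range 26.0% to 35.5%). The 2 sets were chosen by whether they passed, and uneven fish make passing harder. The contrast thus follows in part from the choice and is a description. Outside these 26, with a mean under 5 CPM, was a gene with 421, 0, 18, 0 and 0 counts at 8.78 mg/L and 0 counts in all 5 fish at 2.77 mg/L and in all 10 controls. It did not pass in the step (adjusted p = 0.124) but did at 8.78 mg/L against controls (adjusted p = 0.00044), and its rise rests on replicate 1. That fish had 24.7 CPM, and a larva at the lowest 6PPD dose, 0.00848 mg/L, reached 22.3 CPM. Some larvae at every 6PPD-Q dose below 2.77 mg/L also had counts of it. It was the single tested gene with 0 counts in all fish at 2.77 mg/L, and 13 genes had 0 counts in all fish at 8.78 mg/L.

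The sixth gene by p was also raised by the parent compound. It stood at 16.8, 42.4, 40.5, 63.3 and 56.8 CPM at 8.78 mg/L, and at 35.3, 9.30, 10.2, 14.9 and 7.44 CPM at 2.77 mg/L. Replicate 1 was the lowest fish of the upper dose and replicate 1 the highest of the lower, and these fish overlapped. The log2 difference was 1.51 (95% interval 0.83 to 2.19, adjusted p = 0.124). Without single fish the adjusted p ran from 0.00276 to 0.266. It was lowest without replicate 1 at 2.77 mg/L, and without replicate 1 at 8.78 mg/L it was 0.0203. In larvae at 2.68 mg/L of 6PPD the gene averaged 365 ± 77.8 CPM (SD, n = 5), against 7.13 ± 1.83 CPM in controls (n = 10). Larvae at 8.78 mg/L of 6PPD-Q were higher than controls by 2.62 ± 0.28 on the log2 scale (SE, adjusted p = 1.02e-09). The 1.11 ± 0.29 at 2.77 mg/L did not pass (adjusted p = 0.219).

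Genes that respond to 6PPD were then read over the 6PPD-Q step. The fold changes of the step compare no 6PPD larvae or controls, while its p-values use a spread estimated with them. At 2.68 mg/L of 6PPD against controls, 4774 genes were called (22.1%), 2674 higher and 2100 lower. Of the 2674, 1661 or 62.1% were higher at 8.78 than at 2.77 mg/L of 6PPD-Q, against 52.0% of all tested genes, with a median log2 fold change of 0.07 against 0.01. Without replicate 5 at 8.78 mg/L the share was 59.6%, against 51.1% of all tested genes. Leaving out any 1 fish gave 56.8% to 63.8%. FMg005974 and the fifth called gene were among the 2674, and these 2 calls are 0.0748% of the list, beside 0.0231% of all genes tested. The lists of 574, 2100 and 541 genes given next held 0 calls. Of the 574 genes that 6PPD raised by more than 1 on the log2 scale, 417 or 72.6% were above 0 with a median of 0.15. Without replicate 5 at 8.78 mg/L this share was 69.3%, and without any 1 fish it ran from 64.3% to 72.3%. Of the 2100 genes that fell with 6PPD, 843 or 40.1% were above 0, with a median of -0.06. Of the 541 that fell by more than 1 on the log2 scale, 254 or 47.0% were above 0, with a median of -0.03, which ranged from -0.07 to -0.00087 without single fish. At an unadjusted p under 0.05, 222 of the 2674 genes were higher and 52 lower (8.30% and 1.94%), and 70 of the 574 were higher and 4 lower (12.2% and 0.697%). Of the 2100 genes 75 were higher and 172 lower (3.57% and 8.19%), and of the 541 genes 29 were higher and 31 lower (5.36% and 5.73%). Over all tested genes the shares were 4.75% higher and 4.10% lower. These counts describe lists of genes that are not independent of each other, and no test was made of them.

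Each larva was also given a score, the mean log2(CPM + 1) of the genes that rose with 6PPD minus that of the genes that fell, relative to controls. The score was 0.370, 0.0455, 0.209, 0.0995 and 0.155 in replicates 1 to 5 at 8.78 mg/L, and 0.113, 0.0677, 0.0220, 0.0775 and -0.00368 at 2.77 mg/L. Replicates 1, 3 and 5 at the upper dose were above all fish of the lower dose, and replicates 2 and 4 were among them. Single larvae at lower doses scored as high, with 0.281 and 0.239 in replicates 4 and 5 at 0.0878 mg/L and 0.235 in replicate 5 at 0.0277 mg/L. The group at 0.0878 mg/L averaged 0.132 ± 0.128 (SD, n = 5). Means at the remaining doses below 2.77 mg/L ran from 0.0352 at 0.00878 mg/L to 0.0714 at 0.0277 mg/L. The group means thus did not rise steadily with dose. The controls helped to choose the genes, and no test was made of the score. Scores averaged 0.176 at 8.78 mg/L, against 0.0553 at 2.77 mg/L. Their difference of 0.121 became 0.0720 when replicate 1 of the upper dose was left out. The order of the larvae differed between readouts: replicate 2 had the highest level of FMg006153 and of the third called gene and the lowest score, while replicate 1 had the highest score and the lowest level of both. Without any 1 of the 10 fish, the median log2 fold change of the 2674 genes lay between 0.04 and 0.09, and that of the 574 genes between 0.10 and 0.19.

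**Figure D4:**
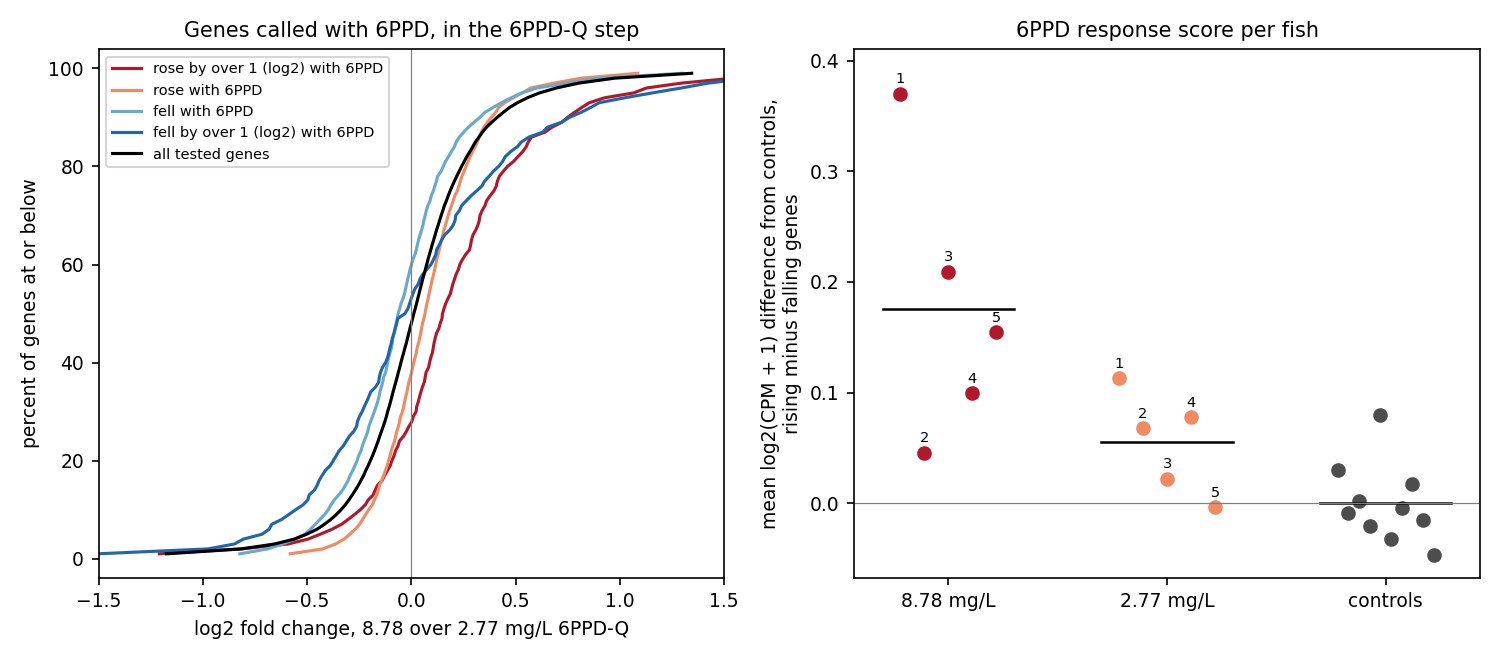
Left, cumulative percent of genes against the log2 fold change of the 6PPD-Q step for genes that rose or fell with 6PPD at 2.68 mg/L and for all tested genes; the 574 genes raised by more than 1 have a median of 0.15, against 0.01 for all genes. Right, the 6PPD response score of each larva with group means, highest in replicate 1 at 8.78 mg/L at 0.37; controls centre on 0 by construction.

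The other steps of the series had about the same ratio of doses. Those further down the 6PPD-Q series, from the lowest up, called 0, 0, 7, 16, 0 and 0 genes (0%, 0%, 0.0324%, 0.0741%, 0% and 0%), with 509 to 1680 genes at an unadjusted p under 0.05. The last step, with 5 calls, had 1911 such genes, the most of any 6PPD-Q step. These p-values use a spread estimated over all 80 libraries, a biological coefficient of variation of 28.1%. Larvae at the upper dose of that step had 33.6% (26.6% without replicate 5) and those at its lower dose 26.2%. With the fish of that step fitted alone, 1228 of 20077 genes had an unadjusted p under 0.05. How far the wider spread at its upper dose bears on this order was not tested. Neighbouring steps share fish. The 16 genes of the step from 0.0878 to 0.277 mg/L were 2 higher and 14 lower. With 6PPD, the step from 0.848 to 2.68 mg/L called 1574 genes (7.29%), 1004 higher and 570 lower. The doses differ from those of 6PPD-Q, so the values stand side by side. The log2 fold changes of the upper steps of the 2 chemicals, with no fish in common, had a Pearson r of 0.05 and a Spearman rho of 0.10. These were taken across all 21599 genes, which are not independent replicates.

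The spread among larvae at 8.78 mg/L depended most on 1 of them. The biological coefficient of variation common to all genes was 33.6% at 8.78 mg/L, 26.2% at 2.77 mg/L and 23.5% in controls, and without replicate 5 it was 26.6% at 8.78 mg/L. The distance between 2 larvae, the root mean square log2 difference over their 500 most different genes, had a median of 2.17 within 8.78 mg/L (10 pairs, range 1.57 to 2.42) and of 1.89 within 2.77 mg/L (10 pairs, range 1.82 to 2.04). Without replicate 5 at 8.78 mg/L the median within that dose was 1.86 (6 pairs), below that within 2.77 mg/L. Without replicate 1 at 8.78 mg/L it was 2.01 (6 pairs). Between the doses, with all larvae, the median was 1.92 (25 pairs, range 1.70 to 2.39), within the range found inside the upper dose and below its median. Without replicate 5 at 8.78 mg/L this order changed. The median between the doses was then 1.90, against 1.86 within the upper dose and 1.89 within the lower. Mean distances to the other larvae of its dose were largest for replicate 5 at 8.78 mg/L, at 2.25, followed by replicate 1 at 2.13. These spreads were not tested against each other.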

How the data were processed

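The authors deposited whole-number read counts per gene for 80 single larvae, made with Trim Galore 0.6.6, STAR 2.7.10a, SAMtools 1.13 and HTSeq 0.13.5 among others, per the submitters' processing notes; libraries were Lexogen SENSE mRNA, per the labels' protocols. Genome build, annotation and strand setting were not given in the sources used here, so overlapping and antisense genes cannot be told apart and near-identical copies are uncertain. The 5 lines that name no gene, 20.3% to 25.7% of reads, stayed out of library sizes and tests. The authors also deposited log2 values for 48 libraries of the 6PPD-Q table, which follow log2(TMM-scaled CPM + 1) of the counts. Outside the lowest counts, the CPM agreed to within 3.5e-07% with library sizes over the genes the authors kept. With library sizes over all genes, the kind used here, they agreed to within 0.024%.

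Here counts were fitted with edgeR 4.0.16 (R 4.3.3): filterByExpr by group (21599 of 26150 genes), TMM factors, 1 mean per group, quasi-likelihood F test, Benjamini-Hochberg adjustment over all tested genes, threshold 0.05, and 65 residual degrees of freedom. Depth was 16.2 to 36.6 M counts per library. SE values were derived from the F statistic. Genes described were those called with a mean of at least 5 CPM, plus the 2 with the smallest p on the lower side; as the files pair no names, at most 2 identifiers are printed each way, besides FMg025031, and the others go by rank of fold change. The sixth gene by p and the gene at 0 counts were picked after their values were seen. Members, lists and FMg025031 were chosen with earlier results of these data known. Of 7 gene lists written by symbol, 0 could be matched, so none was tested. The edgeR fit was also run on simulated counts, drawn with the same spread of a gene in every group. That run cannot show how the test behaves where larvae of a dose differ more from each other than those of another. Larvae of a dose differed by at least 22.1 times the sampling noise (chi-square per degree of freedom), so none was counted as a repeat. Alternatives were DESeq2 1.42.0, limma 3.58.1 and those named in the closing section.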

Additional observations from a re-analysis of the deposited data

Results flagged for a closer look

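In 4 of 32 groups of values a single larva lay far from the rest of its dose. Chance flags about 1 group in 20 where values are independent and normally distributed. Levels of genes chosen in these fish and related measures of 1 library need not be either, so the rate is a rough guide. Replicate 5 at 8.78 mg/L had 22110 genes detected, with the next larva at 22680, and a TMM factor of 0.884, with the next at 0.991. Replicate 3 at 2.77 mg/L had 351 CPM of the fourth called gene, with the next at 198 CPM. Replicate 1 at 2.77 mg/L had 35.3 CPM of the gene shared with 6PPD, with the next at 14.9 CPM.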

How the results depend on the processing

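The step called 5 genes, 5 higher and 0 lower. The same 5 genes were called with RLE factors, without a filter, with a term for outer positions, on plate C alone and with the replicate number as a block. The labels do not say that same-numbered larvae share a litter, day or plate. By the positions read from the codes, replicate 1 of every 6PPD-Q dose lay in rows A to C and replicate 5 in row H. Deviations of same-numbered larvae correlated at -0.25 to 0.07, and 1 of 5 larvae matched its own number best, which cannot show what the numbers mark. With the 10 fish alone 0 were called, likewise 0 higher, with or without the replicate block (unadjusted p under 0.05 for 984 genes with the block). Controls and 6PPD-Q fish alone gave 3 genes, 3 higher, as did limma on the authors' values and the fit without both fish lacking a column there, an alternative chosen after seeing the data, as was plate C alone; the 3 were FMg005974, FMg006153 and the third. DESeq2 gave 12, 11 higher and 1 lower, and a covariate for reads outside genes 8, with 2 lower. Without single fish the count ranged from 2 to 16, from 2 to 13 higher and from 0 to 3 lower. Beyond the construction of the smaller fits, the cause was not tested.

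The median of the genes that rose with 6PPD was 0.07, with 0.15 for those over 1, and ranged from 0.04 to 0.09 without single fish; that of genes that fell ranged from -0.07 to -0.04. The score differed by 0.12 between the doses, by 0.13 with a pseudocount of 0.25, and by 0.072 to 0.153 without single fish, which was chosen after seeing the data, as were the spread and the non-overlapping counts without single fish. Differences between the doses in library measures changed sign in 13 of 60 fits without single fish. They ranged from -0.80 to 0.20 M counts in genes, -115 to 75.6 genes detected, -0.43 to 0.57 and -0.46 to 0.40 percentage points inside and outside genes, -0.26 to 0.99 points for the 10 most counted genes and -0.052 to -0.012 in the TMM factor.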
